A study of Mus musculus with 8 samples.

Results

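Interferon-stimulated genes were followed in luminal cells of the mouse mammary gland as a list of 42 genes, out of 24594 in the deposited count table. The rule was a list of symbols (the 4 interferon receptor chains, 6 transcription factors and 32 products made in response to interferon), and each Entrez Gene ID of the table that maps to one of them was taken. All 42 were in the table. The study deals with the transcription factor TRPS1 in luminal progenitors, and this experiment compared the luminal fractions of unmodified animals by RNA sequencing, which asks which genes set progenitors apart from mature cells. Both groups came from wild-type C57BL/6J mice without treatment, and the labels give no age. The first group was luminal progenitors (LP, 4 libraries), the c-Kit-high luminal fraction. The second was differentiated luminal cells (mature, 4 libraries), the c-Kit-low fraction. Cells were sorted by EpCAM, CD49f and c-Kit after removal of cells stained for blood and endothelial lineage antigens. The methods also list CD14 among the stains, but for this experiment the study names c-Kit as the marker of the fractions. A trace amount of RNA was amplified as cDNA before sequencing, so each library stands for a sorted population and not for single cells.

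Interferons are secreted proteins that cells release on sensing viral nucleic acid. Type I interferons, such as interferon beta, bind the IFNAR1-IFNAR2 receptor and activate STAT transcription factors, which join IRF9 and bind the interferon-stimulated response element (ISRE). Type II interferon (interferon gamma) binds IFNGR1-IFNGR2 and activates STAT dimers, which bind the gamma-activated site (GAS), and many target genes keep a basal level without infection.

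The ISRE, the site through which type I interferon acts, can be read in the promoters of some members, and stretches that hold it are shown for members that were higher in LP. Each line gives 30 bases from RefSeq GRCm38.p6 for a member with an adjusted p-value under 0.05 (edgeR, described next) and at least 1 ISRE core before its annotated transcription start. The core searched was GAAANNGAAA on either strand, which reads TTTCNNTTTC in reverse complement. Sequences run 5′ to 3′ on the strand of the gene, capitals mark bases that belong to a core, overlapping cores run together, and the 6 genes follow the order of their adjusted p-values.
Isg15: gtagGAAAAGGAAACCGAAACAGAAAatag
Gbp3: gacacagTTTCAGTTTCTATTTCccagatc
Ifit3: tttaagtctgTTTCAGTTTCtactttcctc
Ifit1: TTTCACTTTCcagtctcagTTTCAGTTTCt
Bst2: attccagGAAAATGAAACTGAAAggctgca
Oas1a: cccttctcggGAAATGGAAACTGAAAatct

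The Isg15 stretch (chr4:156200871-156200900, minus strand) holds 3 overlapping cores and lies 82 to 53 bases before the start. In Gbp3 (chr3:142559992-142560021, plus strand) 2 overlapping cores lie between 52 and 23 bases before it. The stretch of Ifit3 (chr19:34583397-34583426, plus strand) covers 1 of its 2 cores, from 132 to 103 bases upstream, and that of Ifit1 (chr19:34640785-34640814, plus strand) covers 2 separate cores from 104 to 75 bases upstream. Bst2 (chr8:71537580-71537609, minus strand) has 2 overlapping cores 137 to 108 bases upstream, and Oas1a (chr5:120907526-120907555, minus strand) has 2 that end just before the start. Promoter windows of 300 bases, from 250 before to 50 after the start, were at hand for 33 of the 42 members and not for Zbp1, Usp18, Mx1, Mx2, Parp9, Parp14, Rtp4, Tor3a and Ifi27l2a. An ISRE core was in the window of 13 of these 33 members (39.4%), against 1079 of 27025 genes with a window (3.99%), and in 34.2% of the members' windows against 3.44% of all windows. The holders were Bst2, Eif2ak2, Gbp2, Gbp3, Ifih1, Ifit1, Ifit3, Ifitm3, Irf2, Isg15, Oas1a, Rsad2 and Stat2, with the matches of Eif2ak2, Ifih1 and Ifitm3 after the start. Among members called higher in LP, 9 of 25 held a core (36.0%), and among the other members 4 of 8 did (50.0%). The GAS core TTCNNNGAA, which reads the same on both strands, was in the windows of 10 of the 33 members (30.3%) and of 9.55% of all genes. A match describes letters in a window and not a bound site.

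**Figure D1:**
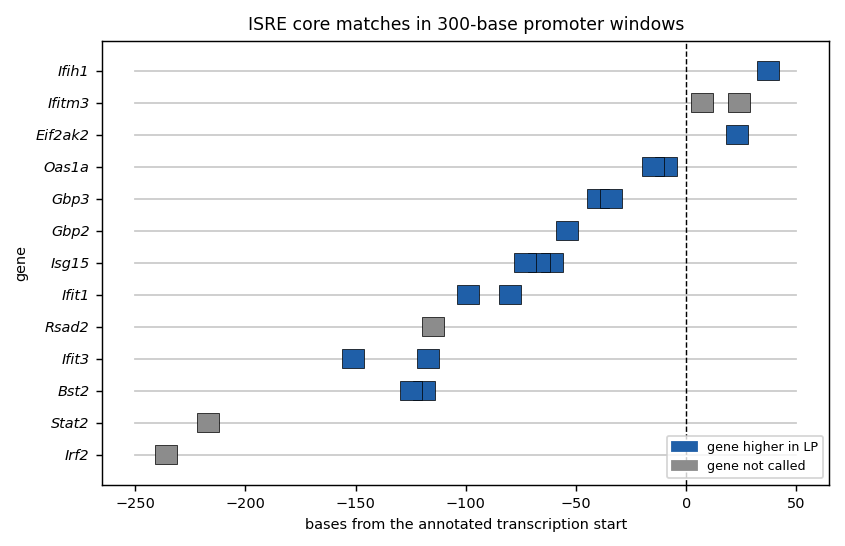
Position of each ISRE core match (boxes 10 bases wide) in the 300-base window of the 13 members that hold one, in bases from the annotated transcription start (dashed line). Blue boxes mark genes called higher in LP and grey boxes genes not called, and most boxes lie before the start.

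Each library held between 4410049 and 7791593 counts on genes. Of the 24594 genes, 12816 passed the low-count filter of edgeR, and the quasi-likelihood test of that program was applied to them, LP against mature, with Benjamini-Hochberg adjustment over the whole set. Levels are given as CPM, which are counts scaled to a common library size with edgeR's TMM factors, always in the order of replicates 1 to 4. A log2 fold change is LP over mature, on the log2 scale with its standard error (SE), and a gene is called where its adjusted p-value is under 0.05. The labels do not say that the libraries came from separate animals. The study's methods state 3 biological replicates per condition for RNA sequencing, where 4 libraries per fraction were at hand. The p-values thus measure the spread between these samples, which may be technical. The marker sums followed the labels. Summed over 7 genes, luminal progenitor markers ran from 23736 to 36318 CPM in LP and from 492 to 3203 CPM in mature libraries, with the highest mature sum in replicate 3, and 8 mature luminal markers ran from 350.0 to 1062 CPM in LP and from 4646 to 6580 CPM in mature libraries. Not every single marker did so. Aldh1a3 was not called (adjusted p = 0.0512), and Lalba was at 0.664 and 0.139 CPM in LP replicates 3 and 4. Esr1 and Areg were called for mature cells but overlapped, Areg with 3.01 CPM in mature replicate 4 and 3.16 CPM in LP replicate 2. Tnfsf11 had counts in mature replicate 3 only. Leukocytes express many of the members, and 16 leukocyte markers summed to between 5.27 and 9.13 CPM in LP and between 4.48 and 11.5 CPM in mature libraries. Cd3e, Cd3g, Tyrobp and Klrd1 were among the 5 at 0 in every library. Csf1r was the highest of the 16 in each library, at 2.91 to 7.47 CPM in LP and 3.18 to 4.92 CPM in mature libraries. Adgre1, Itgam and Ms4a1 also had counts in every library, and Fcer1g reached 3.47 CPM in mature replicate 4. In bulk RNA, fewer cells of a type and less RNA per cell cannot be told apart.

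Most interferon-stimulated genes of the list had more RNA in LP than in mature cells. The list was chosen with earlier results of these data known, so the shares below describe it and are no test. Of the 41 members tested, 30 were called higher in LP (73.2%), against 10.9% of all tested genes. Only Irf1 and Tor3a were called higher in mature cells (4.88%, against 13.8% of all tested genes). The 9 that were not called were Stat2, Irf2, Irf3, Usp18, Trim25, Mx2, Ifitm3, Rsad2 and Dtx3l, and Mx1 was too low to be tested. The median log2 fold change of the 41 members was 1.09, where the median over all tested genes was 0.00, and the members ran from -1.70 in Irf1 to 3.29 in Irf7. In 28 tested members every LP library was above every mature library, which held for 14.0% of all tested genes. In 1 member (Irf1) every mature library was above every LP library, which held for 15.5% of all tested genes. Without mature replicate 3, the mature library with the most progenitor marker RNA, the calls came to 28 members for LP and 2 for mature cells.

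**Figure D2:**
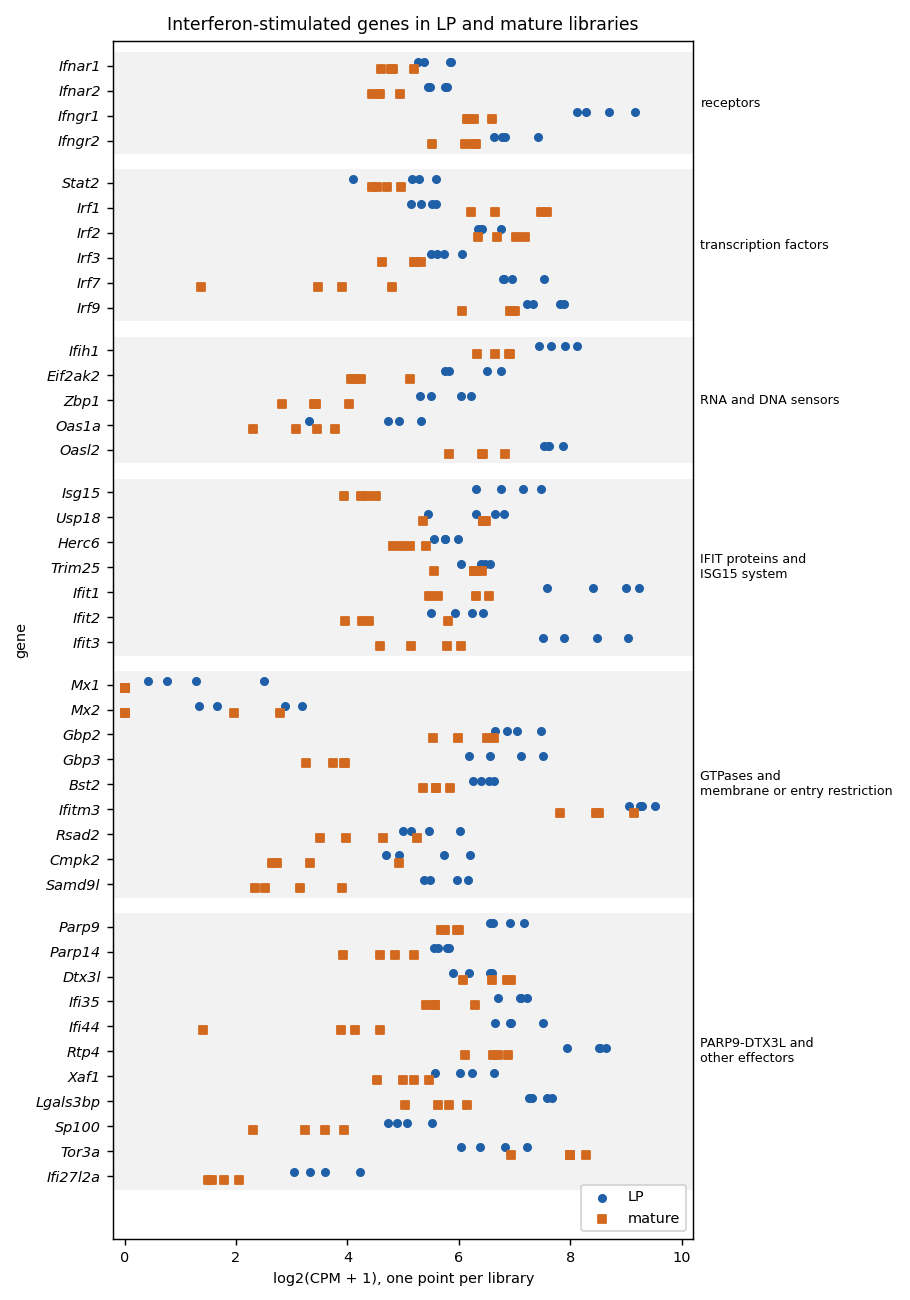
Level of each of the 42 members in every library, as log2(CPM + 1), grouped by role. Blue circles are the 4 LP libraries and orange squares the 4 mature libraries, and in Irf1 the squares lie to the right of the circles.

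The receptor chains were all called higher in LP, against 10.9% of all tested genes. Their libraries did not overlap between the fractions, which held in this direction for 14.0% of all tested genes. Ifngr1 (Entrez Gene 15979, chr10:19591949-19610229 on mm10), the ligand-binding chain of the interferon gamma receptor, had 309, 275, 414 and 569 CPM in LP and 71.6, 70.1, 76.7 and 95.2 CPM in mature libraries. This was a 4.99-fold difference (log2 fold change 2.32, SE 0.24, adjusted p = 0.000298), the largest of the 4 chains. Ifngr2, the signalling chain of the same receptor, had 97.6, 109, 171 and 112 CPM in LP and 45.0, 68.0, 76.2 and 78.2 CPM in mature libraries (log2 fold change 0.87, SE 0.23, adjusted p = 0.0193). The type I receptor chains differed less than Ifngr1. Ifnar1 had 37.6, 40.4, 55.9 and 57.0 CPM in LP and 23.3, 27.3, 35.7 and 26.5 CPM in mature libraries (log2 fold change 0.76, SE 0.22, adjusted p = 0.0297). Its partner Ifnar2 had 53.9, 43.4, 42.7 and 52.7 CPM in LP against 22.9, 20.8, 29.9 and 22.8 CPM in mature libraries (log2 fold change 1.00, SE 0.20, adjusted p = 0.00507). Per kilobase of exon, Ifngr1 stood at 186 CPM in LP, above Ifngr2 at 33.0, Ifnar2 at 15.2 and Ifnar1 at 12.2, whereas in mature cells it stood at 37.1 against 18.0, 7.59 and 7.22. Ifnar2, Ifnar1 and Ifngr2 are neighbours on chromosome 16, with gaps of 79442 and 36535 bases. The call of Ifnar1 was lost without LP replicate 3 or 4 or mature replicate 1, 2 or 4 (adjusted p up to 0.0872), and that of Ifngr2 without LP replicate 3 (adjusted p = 0.0504).

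**Figure D3:**
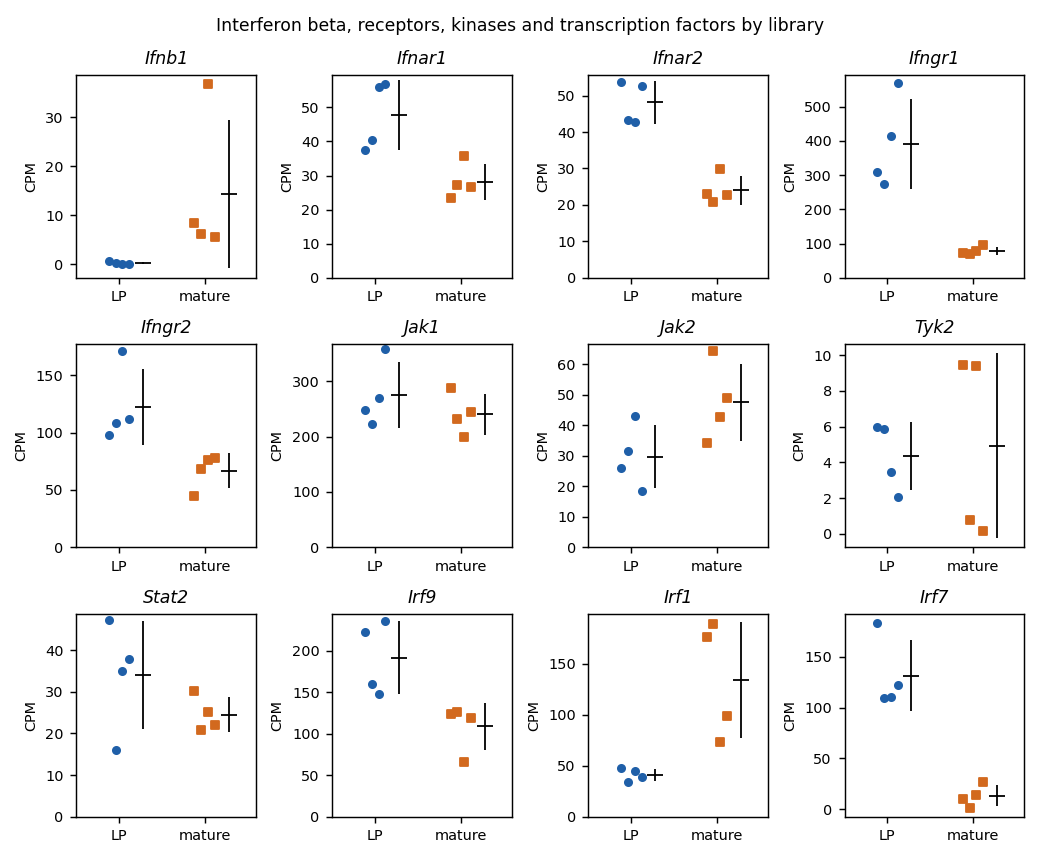
CPM of interferon beta, receptor, kinase and transcription factor genes in each library (points) with the mean and SD of 4 libraries beside them (bars), each panel on its own scale. All 4 LP libraries lie above all 4 mature libraries for the receptor chains, Irf9 and Irf7, and below them for Ifnb1 and Irf1.

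The transcription factors were divided. Irf7 (Entrez Gene 54123, chr7:141263183-141266499), which drives a second wave of type I interferon genes and is itself induced by interferon, had 184, 109.8, 111 and 122 CPM in LP and 10.1, 1.58, 14.0 and 26.8 CPM in mature libraries. With a 9.80-fold difference it had the largest fitted change of the 41 tested members (log2 fold change 3.29, SE 0.55, adjusted p = 0.00217), although mature replicate 2 lay far below the other mature libraries. Irf9, the DNA-binding subunit of the type I signalling complex, had 223, 160.0, 149 and 237 CPM in LP and 123, 127, 65.8 and 119 CPM in mature libraries (log2 fold change 0.82, SE 0.24, adjusted p = 0.0294), a call lost without LP replicate 1 or LP replicate 4 (adjusted p up to 0.0853). Irf1 (Entrez Gene 16362, chr11:53770014-53778374) went the other way. This factor, which is induced by interferon gamma and binds ISRE-like sites, had 47.3, 34.1, 44.7 and 38.7 CPM in LP and 176, 189, 73.6 and 98.8 CPM in mature libraries, so that it was 3.26-fold higher in mature cells (log2 fold change -1.70, SE 0.29, adjusted p = 0.00248). Mature replicates 1 and 2 were the highest for Irf1, and in the same 2 libraries 6 fibroblast markers summed to 138 and 179 CPM, against 28.3 and 27.0 CPM in mature replicates 3 and 4 and 7.35 to 41.7 CPM in LP. Dcn made up 132 and 154 CPM of those 2 sums. Col1a1 was at 0 in both, as in mature replicate 4 and LP replicates 2 and 4. Col1a2 was at 0.844 and 0.788 CPM, below its 4.04 CPM in mature replicate 3. Col3a1 was at 1.83 and 2.63 CPM, below its 5.48 CPM in LP replicate 3. Pdgfra was at 0.562 and 16.3 CPM and Lum at 2.67 and 5.52 CPM, each highest of all libraries in mature replicate 2. Whether other cells added to the Irf1 level was not tested. Irf3, which starts interferon transcription after sensing, had 47.5, 65.1, 44.0 and 51.9 CPM in LP and 36.3, 23.6, 35.8 and 38.9 CPM in mature libraries. These did not overlap, but Irf3 missed the threshold (log2 fold change 0.63, SE 0.21, adjusted p = 0.0547). Stat2, which carries the type I signal to the nucleus, had 47.2, 16.1, 34.9 and 37.7 CPM in LP and 30.2, 20.8, 25.1 and 22.0 CPM in mature libraries and overlapped (log2 fold change 0.47, SE 0.31, adjusted p = 0.303), with a 95% interval from -0.22 to 1.15. For Irf2, a repressor of IRF1 targets, LP libraries had 83.6, 83.8, 106 and 80.2 CPM and mature libraries 144, 129.8, 79.7 and 102 CPM. They overlapped, with a log2 fold change of -0.36 (95% interval -0.81 to 0.08, adjusted p = 0.215).

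The sensors of foreign RNA and DNA were all called higher in LP, against 10.9% of all tested genes. Ifih1, which encodes the long double-stranded RNA sensor MDA5, had 238, 200.3, 173 and 276 CPM in LP and 99.7, 119.8, 79.4 and 118 CPM in mature libraries (log2 fold change 1.09, SE 0.20, adjusted p = 0.00315). Eif2ak2 encodes the RNA-activated kinase PKR, which stops translation, and had 107, 90.3, 52.6 and 55.9 CPM in LP against 33.6, 15.8, 16.5 and 17.9 CPM in mature libraries (log2 fold change 1.86, SE 0.32, adjusted p = 0.00257). For Zbp1, a sensor of Z-form nucleic acid that can start cell death, values were 73.6, 64.8, 38.5 and 44.4 CPM in LP and 9.56, 6.04, 15.3 and 9.79 CPM in mature libraries (log2 fold change 2.43, SE 0.32, adjusted p = 0.000742). These 3 genes did not overlap between fractions. Oasl2, of the oligoadenylate synthetase family, had 233, 194, 194 and 184 CPM in LP and 83.8, 84.8, 55.7 and 112 CPM in mature libraries, again without overlap (log2 fold change 1.26, SE 0.21, adjusted p = 0.00210). Its relative Oas1a had 39.1, 29.2, 25.4 and 8.88 CPM in LP and 7.45, 3.94, 12.7 and 9.94 CPM in mature libraries. LP replicate 4 lay within the mature range of Oas1a (log2 fold change 1.57, SE 0.48, adjusted p = 0.0337), the call was lost without LP replicate 1, 2 or 3 or mature replicate 1, 2 or 4 (adjusted p up to 0.106), and 57.0% of its 51-base stretches also occur in Oas1g, so reads may be shared with that gene.

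Of the IFIT genes and the ISG15 system, 5 of 7 were called higher in LP (71.4%, against 10.9% of all tested genes). Isg15 (Entrez Gene 100038882, chr4:156199424-156200818), a ubiquitin-like protein attached to other proteins after interferon, had 177, 141, 78.0 and 108 CPM in LP and 19.4, 21.8, 18.0 and 14.3 CPM in mature libraries. The fractions lay far apart, at 6.86-fold (log2 fold change 2.78, SE 0.27, adjusted p = 0.000224). Of the enzymes that work with ISG15, Herc6 was called and Usp18 was not, and the difference between them was not tested. Herc6, the mouse ligase for ISG15, had 53.1, 62.1, 53.1 and 46.2 CPM in LP and 41.3, 27.1, 30.5 and 33.9 CPM in mature libraries (log2 fold change 0.69, SE 0.19, adjusted p = 0.0246), a call lost without LP replicate 1 or 2 (adjusted p up to 0.0768), and 26.6% of its exon bases overlap Gm45193. Usp18, which removes ISG15 and dampens type I receptor signalling, had 111, 99.8, 42.7 and 78.1 CPM in LP and 85.8, 84.8, 39.8 and 88.7 CPM in mature libraries. The fractions overlapped widely (log2 fold change 0.15, SE 0.32, adjusted p = 0.770), replicate 3 was the lowest in both, and the 95% interval of the log2 fold change ran from -0.56 to 0.86, which leaves room for a difference of either sign. Trim25, a ubiquitin ligase that acts on the sensor RIG-I, had a log2 fold change of 0.22 (95% interval -0.25 to 0.68, adjusted p = 0.489).

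The 3 IFIT members encode proteins that bind foreign RNA and block its translation, and they lie together on chromosome 19 with 6584 bases between Ifit2 and Ifit3 and 51906 bases between Ifit3 and Ifit1. Ifit1 (Entrez Gene 15957) had 599, 509, 191 and 337 CPM in LP and 92.1, 77.7, 48.1 and 43.1 CPM in mature libraries (log2 fold change 2.65, SE 0.37, adjusted p = 0.000965). Ifit3 (Entrez Gene 15959) had 523, 355, 182 and 234 CPM in LP and 64.8, 53.8, 23.0 and 34.4 CPM in mature libraries (log2 fold change 2.88, SE 0.40, adjusted p = 0.000869). In both, LP replicate 3 was the lowest LP library and still lay above every mature library. Of the 51-base stretches of Ifit3, 50.8% also occur in Ifit3b, and the level of each is uncertain to that extent. Ifit2 had 85.8, 59.7, 74.5 and 44.4 CPM in LP and 20.0, 14.4, 54.7 and 18.1 CPM in mature libraries, where mature replicate 3 lay among the LP values (log2 fold change 1.29, SE 0.40, adjusted p = 0.0384). The call of Ifit2 was lost without LP replicate 1, 2 or 3 or mature replicate 1, 2 or 4 (adjusted p up to 0.102).

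Among GTPases and factors that restrict viruses at membranes, 5 of 8 tested members were called higher in LP (62.5%, against 10.9% of all tested genes). Gbp3, a guanylate-binding protein that acts on pathogen-containing vacuoles, had 182, 137, 71.7 and 93.8 CPM in LP and 8.58, 12.3, 14.4 and 14.3 CPM in mature libraries. At 9.74-fold it came next after Irf7 among the tested members (log2 fold change 3.28, SE 0.32, adjusted p = 0.000224). Its neighbour Gbp2, 47449 bases away on chromosome 3, had 177, 116, 131 and 98.8 CPM in LP and 98.6, 89.6, 62.7 and 45.4 CPM in mature libraries. The smallest gap between the fractions was narrow for Gbp2 (log2 fold change 0.82, SE 0.26, adjusted p = 0.0435), and its call was lost without LP replicate 1, 2 or 3 or mature replicate 3 or 4 (adjusted p up to 0.130). Bst2, or tetherin, holds budding virus at the cell surface and had 98.4, 92.4, 82.8 and 75.3 CPM in LP against 46.8, 56.5, 46.9 and 40.1 CPM in mature libraries (log2 fold change 0.88, SE 0.17, adjusted p = 0.00417). Samd9l, an antiviral inhibitor of translation, had 70.6, 40.4, 43.7 and 61.7 CPM in LP and 4.08, 4.73, 14.0 and 7.84 CPM in mature libraries, without overlap (log2 fold change 2.80, SE 0.40, adjusted p = 0.000965).

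Rsad2 and Cmpk2, which lie 12664 bases apart on chromosome 12, act in sequence, since CMPK2 makes the nucleotide that the RSAD2 product viperin turns into a chain terminator. Cmpk2 had 72.3, 51.9, 24.9 and 29.5 CPM in LP and 29.5, 5.25, 5.63 and 9.04 CPM in mature libraries, where mature replicate 1 reached the lower LP values (log2 fold change 1.83, SE 0.57, adjusted p = 0.0369). Its call was lost without LP replicate 1 or 2 or mature replicate 2, 3 or 4 (adjusted p up to 0.111). Rsad2 had 63.7, 34.1, 43.0 and 30.9 CPM in LP and 23.9, 37.0, 10.4 and 14.8 CPM in mature libraries, with mature replicate 2 among the LP values, and was not called (log2 fold change 1.01, SE 0.39, adjusted p = 0.0838). Ifitm3, which blocks fusion of virus in endosomes, had 736, 625, 528 and 607 CPM in LP and 363, 225, 351 and 561 CPM in mature libraries. Mature replicate 4 lay within the LP range, and the adjusted p-value was just above the threshold (log2 fold change 0.73, SE 0.25, adjusted p = 0.0566). Per kilobase of exon Ifitm3 was the highest member in both fractions, at 921 CPM in LP and 553 CPM in mature cells, followed in LP by Ifngr1 at 186, Ifit3 at 185, Rtp4 at 176, Isg15 at 166 and Ifit1 at 154.

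The Mx genes were the lowest members, at 0.525 CPM per kilobase in LP for Mx1 and 1.87 for Mx2. Mx1 had 32, 10, 2 and 5 counts in LP libraries and 0 counts in each mature library. Pooled over the fraction it stood at 1.81 CPM in LP. In mature cells 0 counts allow up to 3 counts, or 0.123 CPM, over the fraction. The LP level was 14.8-fold this limit, which covers counting error on the mature side only. LP replicate 1 held most of the counts, and without it the LP level was 6.87-fold the limit. In the smallest mature library alone the limit was 0.788 CPM, above LP replicates 3 and 4 at 0.332 and 0.694 CPM. Mx2 had 6.39, 8.05, 2.16 and 1.53 CPM in LP and 5.91, 2.89, 0 and 0 CPM in mature libraries, and its interval from -1.62 to 3.71 on the log2 scale shows no direction at this depth (adjusted p = 0.570).

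The remaining effectors were called higher in LP in 9 of 11 cases (81.8%, against 10.9% of all tested genes). Ifi44, which is induced by type I interferon and has no settled role, had 181, 120.2, 98.9 and 121 CPM in LP and 13.8, 16.5, 23.1 and 1.66 CPM in mature libraries (log2 fold change 3.25, SE 0.55, adjusted p = 0.00235). Mature replicate 4 stood lowest for Ifi44, and all mature libraries were below all LP libraries. Rtp4, a chaperone of membrane receptors, had 397, 371, 244 and 363 CPM in LP and 103, 96.7, 68.0 and 117 CPM in mature libraries (log2 fold change 1.84, SE 0.22, adjusted p = 0.000460), and 15.2% of its exon bases overlap Gm45338. Lgals3bp, a secreted galectin-binding protein, had 191, 158, 202 and 152 CPM in LP and 69.7, 31.5, 48.2 and 55.6 CPM in mature libraries (log2 fold change 1.77, SE 0.23, adjusted p = 0.000730). Sp100, a component of PML nuclear bodies, had 45.0, 32.3, 28.7 and 25.5 CPM in LP and 14.3, 3.94, 8.37 and 11.1 CPM in mature libraries (log2 fold change 1.78, SE 0.37, adjusted p = 0.00665). In these 4 genes no mature library reached an LP library.

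Ifi35 had 135, 138, 103 and 149 CPM in LP and 46.7, 41.5, 46.3 and 77.6 CPM in mature libraries (log2 fold change 1.30, SE 0.22, adjusted p = 0.00242), and 17.4% of its exon bases overlap Gm11626. Xaf1, which promotes apoptosis, had 97.7, 74.6, 63.9 and 46.6 CPM in LP and 43.0, 30.7, 22.1 and 35.4 CPM in mature libraries (log2 fold change 1.11, SE 0.27, adjusted p = 0.0131). For Ifi27l2a values were 7.26, 9.06, 17.6 and 11.1 CPM in LP and 1.83, 3.15, 2.45 and 1.96 CPM in mature libraries (log2 fold change 2.26, SE 0.45, adjusted p = 0.00527). Every LP library was above every mature library in all 3 genes. Tor3a, an ATPase of the torsin family in the endoplasmic reticulum, was the exception, with 149, 112, 64.4 and 82.4 CPM in LP and 255, 309.7, 121 and 253 CPM in mature libraries. It was 2.3-fold higher in mature cells (log2 fold change -1.20, SE 0.32, adjusted p = 0.0189), but LP replicate 1 was above mature replicate 3, and the call was lost without LP replicate 3, LP replicate 4 or mature replicate 2 (adjusted p up to 0.0590).

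The PARP9-DTX3L pair, an ADP-ribosyltransferase and a ubiquitin ligase that form a complex, and Parp14 lie side by side on chromosome 16. Parp9 had 142, 97.0, 120.0 and 93.5 CPM in LP and 61.6, 49.9, 53.0 and 63.4 CPM in mature libraries (log2 fold change 0.99, SE 0.18, adjusted p = 0.00330). Parp14, another ADP-ribosyltransferase, had 54.3, 45.7, 55.8 and 48.3 CPM in LP and 35.7, 27.8, 14.1 and 22.9 CPM in mature libraries (log2 fold change 1.02, SE 0.27, adjusted p = 0.0183). Both were about 2.0-fold higher in LP, without overlap. Dtx3l had 71.9, 58.5, 95.6 and 93.5 CPM in LP and 116, 121, 66.1 and 95.4 CPM in mature libraries, which overlapped and were not called (log2 fold change -0.31, SE 0.23, adjusted p = 0.348). The genes Dtx3l and Parp9 overlap by 558 bases, which makes 10.3% of the exon bases of Parp9 and 6.41% of those of Dtx3l shared, and the difference between the 2 genes was not tested.

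**Figure D4:**
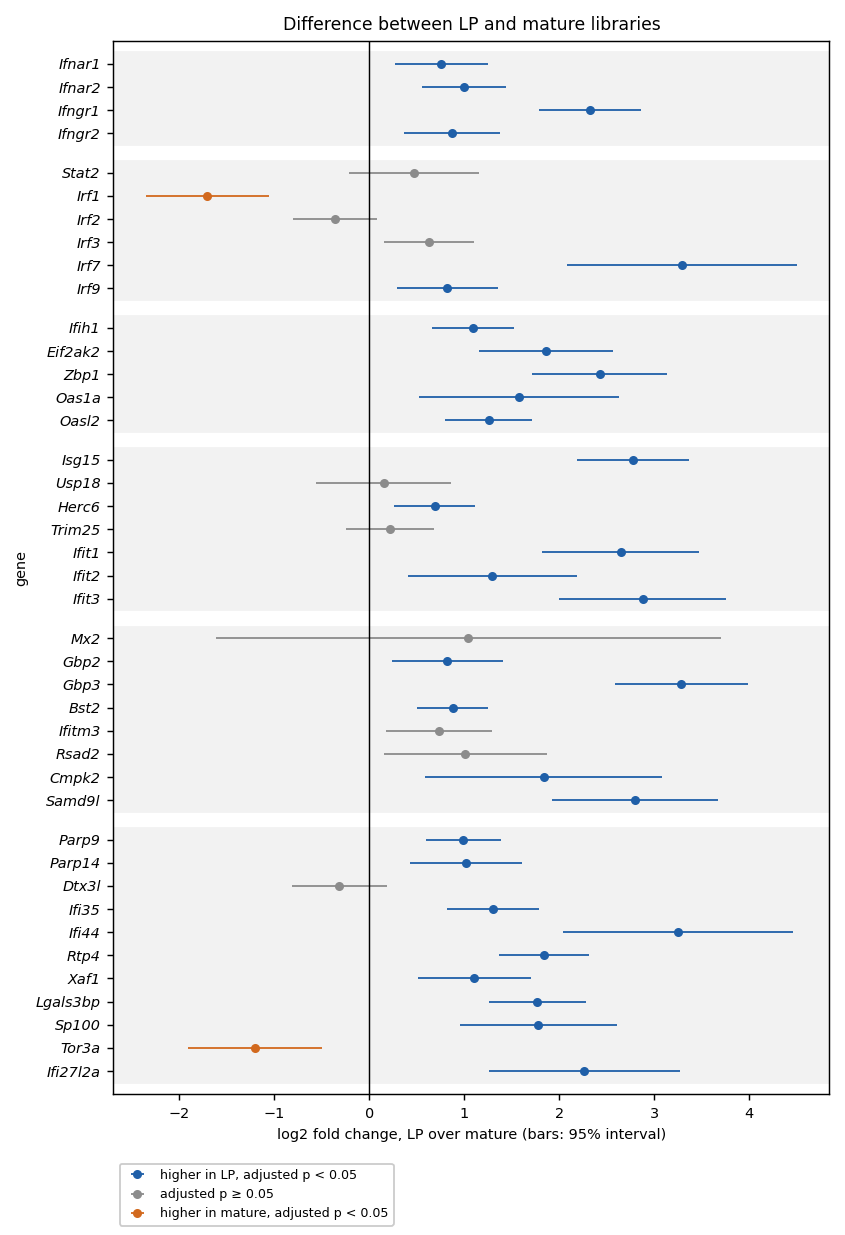
Log2 fold change of LP over mature for the 41 tested members, with 95% intervals not adjusted for the number of genes, from edgeR's quasi-likelihood fit. Blue marks the 30 genes called higher in LP, orange Irf1 and Tor3a, which were called higher in mature cells, and grey the 9 not called.

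Within LP, 1 library stood high across the members. LP replicate 1 was the highest LP library in 27 of the 41 members (65.9%), where it was the highest in 22.1% of all tested genes. LP replicate 3 was the lowest in 17 members (41.5%, against 29.6% of all tested genes) and LP replicate 4 in 14 (34.1%, against 24.8%). Summed over the 30 members called higher in LP, the level was 4885, 3925, 3292 and 3857 CPM in LP replicates 1 to 4 and 1345, 1210, 1081 and 1284 CPM in mature replicates 1 to 4. On the log2(CPM + 1) scale the median deviation of these 30 members from the mean of their fraction was 0.38 in LP replicate 1, against 0.02 for all tested genes, and between -0.16 and 0.10 in the other 7 libraries. No such lead was seen in the mature libraries, where replicates 1 to 4 were the highest in 13, 9, 9 and 10 members. The receptor chains were no part of the lead of LP replicate 1, except for Ifnar2. LP replicate 1 also had the highest LP sum of mature luminal markers, at 1062 CPM against 350.0 to 590.0 CPM, and its part in the result was not tested. Without LP replicate 1, the calls came to 24 members for LP and 2 for mature cells, with a median log2 fold change of 0.99.

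**Figure D5:**
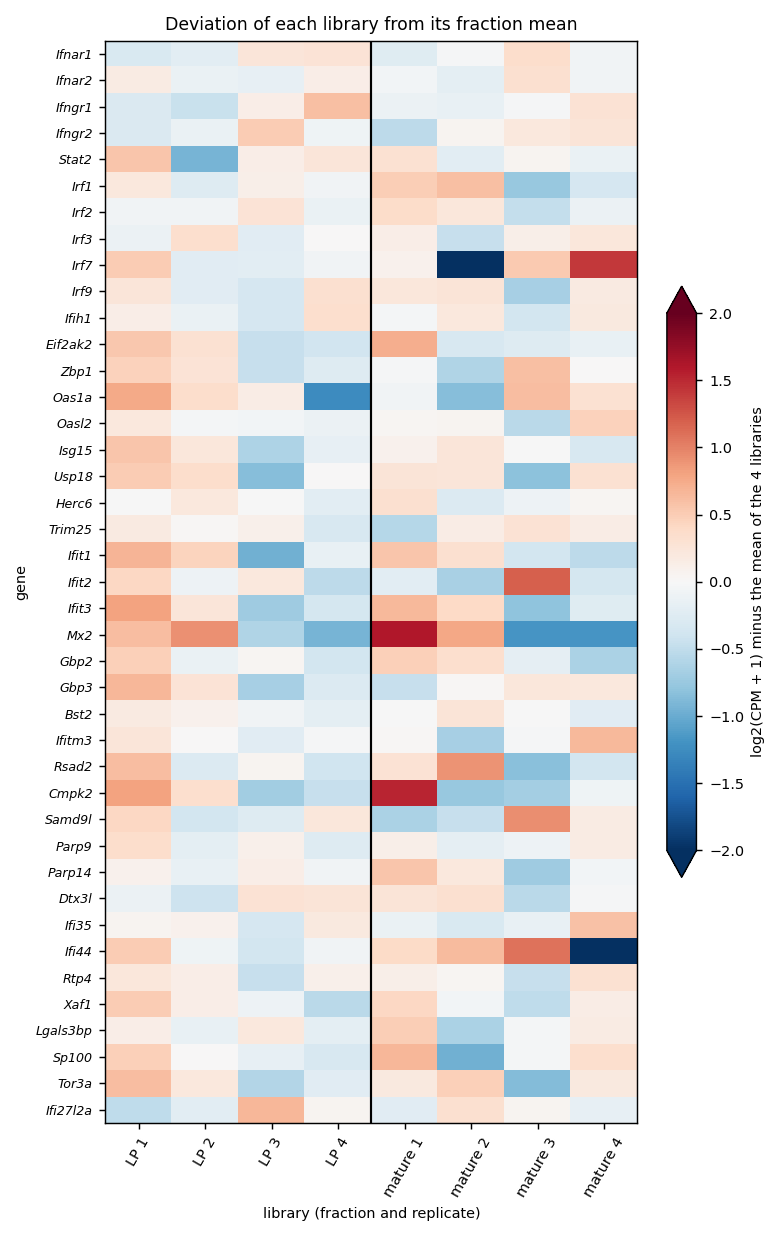
Deviation of each library from the mean of the 4 libraries of its fraction, as log2(CPM + 1), for the 41 tested members (rows) and 8 libraries (columns). The column of LP replicate 1 is mostly red, with a median deviation of 0.38 over the 30 members called higher in LP, and the columns of the mature libraries are mixed.

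The rest of the pathway was followed in 138 further genes, of which 103 were tested. Of these, 36 were called for LP, 6 for mature cells and 61 for neither, which makes 35.0% for LP and 5.83% for mature cells, against 10.9% and 13.8% of all tested genes. The median log2 fold change of the 103 was 0.63. The interferon genes themselves were hardly detected. Of 21 interferon ligand genes, 18 were at 0 in every library, and Ifnk and Ifnz had at most 18 and 4 counts in any library. The exception was Ifnb1, interferon beta, with 4, 2, 0 and 0 counts in LP and 60, 23, 255 and 37 counts in mature libraries. It was lower in every LP library than in any mature library (log2 fold change -5.90, SE 1.04, adjusted p = 0.00280), opposite in direction to the 30 members called for LP, and mature replicate 3 held more than the other mature libraries together. The call held without any 1 library, but the log2 fold change moved from -6.91 without LP replicate 1 to -4.78 without mature replicate 3.

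The kinases attached to the receptors were not called. Jak1 had 248, 223, 270.4 and 359 CPM in LP and 287, 231, 198 and 244 CPM in mature libraries, with a log2 fold change of 0.20 (95% interval -0.22 to 0.61, adjusted p = 0.487). Jak2, which serves the interferon gamma receptor, had a log2 fold change of -0.68 (95% interval -1.31 to -0.04, adjusted p = 0.113). Tyk2 was under 10 CPM in every library, and its interval from -2.27 to 1.87 shows no direction at this depth. Socs3, an inhibitor of cytokine signalling, had 42.3, 21.0, 39.0 and 35.5 CPM in LP and 116, 59.9, 33.5 and 90.1 CPM in mature libraries, where mature replicate 3 lay within the LP range (log2 fold change -1.12, SE 0.36, adjusted p = 0.0426). The call of Socs3 was lost without each LP library in turn or without mature replicate 1, 2 or 4 (adjusted p up to 0.130). Among further IRF genes, Irf8 had 0.145, 0, 1.16 and 0.139 CPM in LP and 1.97, 15.2, 2.60 and 5.42 CPM in mature libraries (log2 fold change -4.09, SE 1.08, adjusted p = 0.0193), a call lost without LP replicate 1 or 4 or mature replicate 2 (adjusted p up to 0.0673), while Irf5 at -0.31 was not called.

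Of 85 further interferon-stimulated genes, 74 were tested, with a median log2 fold change of 0.92. A call for LP was made in 30 (40.5%, against 10.9% of all tested genes). A call for mature cells was made in 3 (4.05%, against 13.8% of all tested genes). The largest of those named by lowest adjusted p-value was Ifit3b, a close copy of Ifit3, with 362, 249.6, 111 and 167 CPM in LP and 29.1, 28.1, 12.3 and 17.2 CPM in mature libraries (log2 fold change 3.37, SE 0.40, adjusted p = 0.000479). Phf11d reached a log2 fold change of 1.66 (adjusted p = 0.000807) and Shisa5, a membrane protein linked to apoptosis, 1.39 (adjusted p = 0.000974). Isg20, an exonuclease that degrades RNA, was among the 3 higher in mature cells, with 29.3, 24.2, 18.4 and 25.5 CPM in LP and 232, 335, 80.8 and 65.4 CPM in mature libraries (log2 fold change -2.87, SE 0.49, adjusted p = 0.00235). Its highest values were in mature replicates 1 and 2, as for Irf1. The other two, Ifi205 and Mnda (Ifi211 in RefSeq) of the PYHIN family, had log2 fold changes of -2.58 (adjusted p = 0.0421) and -1.96 (adjusted p = 0.0469), with their highest values in mature replicates 1 and 2 as well, and both calls were lost without any 1 of the LP libraries or without mature replicate 1 or 2 (adjusted p up to 0.142). The marker Dcn was also highest in those 2 libraries, and the other fibroblast markers were mixed, as given for Irf1.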

How the data were processed

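RNA of 4 LP and 4 mature luminal libraries was analysed. According to the submitters' processing notes and the study's methods, single-end reads of 51 bases were trimmed with cutadapt 4.2 and aligned to mm10 with Bowtie2 2.3.5.1, which does not split reads over introns; the notes also list hg19. The authors deposited raw counts per Entrez Gene ID, without normalization. The counting program, its annotation and its use of strand are not given in the sources used here, so reads of overlapping genes cannot be told apart. RNA was amplified from trace amounts.

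Of 24594 IDs, 24570 matched RefSeq GRCm38.p6 (mm10), which gave symbols, positions and promoters. GENCODE M21 exons gave lengths, overlaps and shared 51-base stretches. All 8 libraries were compared with edgeR 4.0.16 in R 4.3.3 (TMM, filterByExpr, 12816 genes, quasi-likelihood F-test, Benjamini-Hochberg adjustment, threshold 0.05), with DESeq2 1.42.0 as an alternative, and further steps in Python 3.11.15 with pandas 2.3.3. The SE is the absolute log2 fold change over the square root of F, and CPM has no added count. The fit was tested on simulated data.

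The members and lists were chosen with earlier results of these data known. By rule, values by library are given for called members, receptor chains and up to 6 uncalled members with the largest change. For the pathway the rule named up to 8 genes a direction by lowest adjusted p, beside the kinases and selected sensors. Beyond the rule, values are given for Mx1, Usp18, Dtx3l, Ifi47, Iigp1 and Ifnlr1. Alternatives were other scaling factors, no filter, other tests, a replicate block and each library left out. No column was left out, and some genes of the lists are not reported here.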

Additional observations from a re-analysis of the deposited data

Results flagged for a closer look

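In 8 of 82 groups of 4 libraries (41 members in each of 2 fractions), 1 library lay apart from the other 3 by a larger share of the range of the group than Dixon's limit for 4 samples allows. Chance puts about 1 in 20 groups past it, or 4.1 of 82.

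Mature replicate 3 accounted for 3 of the 8. It had 65.8 CPM of Irf9 (gap 0.879 of the range) and 39.8 CPM of Usp18 (0.920), below the other mature libraries, and 54.7 CPM of Ifit2 (0.863), above them. Mature replicate 1 stood above the others with 33.6 CPM of Eif2ak2 (0.878) and 29.5 CPM of Cmpk2 (0.844), and mature replicate 4 with 77.6 CPM of Ifi35 (0.856). In LP, replicate 3 had 106 CPM of Irf2 (0.862) and replicate 1 had 184 CPM of Irf7 (0.834), each above the other LP libraries. The calls of Irf7, Eif2ak2 and Ifi35 held in all 14 alternatives, and those of Irf9, Ifit2 and Cmpk2 were lost in some fits without 1 library, as given with each gene.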

How the results depend on the processing

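In 14 alternatives the 41 tested members gave 574 log2 fold changes, and 572 kept their direction. Usp18 changed sign, to -0.0188 without LP replicate 1 and -0.0299 without mature replicate 3, with adjusted p-values of 0.977 and 0.951, and reached at most 0.37 when 1 library was left out. The call of 23 of the 32 called members held in every alternative, and 22 of these were higher in LP. In 36 values a call was lost, and in 9 one was gained, for Irf3, Ifitm3 and Rsad2. Members higher in LP numbered 30 and between 30 and 33 in the alternatives with all libraries (33 with DESeq2), and from 24 to 28 when 1 library was left out. Members higher in mature cells numbered 2, or 1 to 2 when 1 library was left out (1 without LP replicate 3, LP replicate 4 or mature replicate 2). The median log2 fold change of the members was 1.09 and ran from 0.99 to 1.26 when 1 library was left out. Pathway genes higher in mature cells numbered 6, but 3 with no filter (Socs3, Ifi205 and Mnda lost) and 2 to 8 when 1 library was left out (2 without LP replicate 1 or LP replicate 4, 3 without LP replicate 2, mature replicate 1 or mature replicate 2), and those higher in LP numbered 36, or 29 to 35. The cause was not tested. All called genes numbered 3161, or 2338 to 3414 when 1 library was left out. Those higher in LP numbered 1394, or 1001 to 1668, and those higher in mature cells 1767, or 1337 to 1746. The median of all genes moved by less than 0.05 in every alternative.

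The number in the labels joins each LP library to 1 mature library without saying what it marks. Deviations from the fraction means correlated across genes at 0.113, 0.0618, 0.148 and 0.0844 for libraries of the same number, so not every pair passed 0.1, and the numbers were taken as names. Each LP library correlated best with the mature library of its own number, but mature replicate 2 correlated better with LP replicate 1 (0.0779). A fit with the replicate block gave calls to 30 members for LP and to 2 for mature cells, with Oas1a lost and Ifitm3 gained, and 3 pathway genes higher in mature cells, with Irf8, Ifi205 and Mnda lost (adjusted p up to 0.160).

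Depth limits the lowest genes. Mx1, Mx2, Tyk2, Irf8 and the ligands rest on few counts, and shared sequence limits Oas1a, Ifit3 and Ifit3b. Reads were amplified without molecular identifiers, so counts are not independent molecules.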

Other observations

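The immunity-related GTPases are interferon-gamma-induced proteins that attack the vacuoles of intracellular pathogens. Of the 5 that were listed, 3 were called higher in LP, against 10.9% of all tested genes. Igtp had 113, 104, 82.2 and 109 CPM in LP and 22.5, 32.8, 19.9 and 20.0 CPM in mature libraries (log2 fold change 2.11, SE 0.21, adjusted p = 0.000268). Irgm1 and Irgm2 had log2 fold changes of 1.89 (adjusted p = 0.000742) and 2.21 (adjusted p = 0.000432). No mature library reached an LP library in these 3 genes, whose calls held in all 14 alternatives. The other two, Ifi47 and Iigp1, were not called in any of them. Ifi47 had 57.1, 63.4, 64.2 and 47.9 CPM in LP and 48.5, 50.2, 32.5 and 32.7 CPM in mature libraries (log2 fold change 0.51, SE 0.21, adjusted p = 0.101). Iigp1 had 299, 268, 98.1 and 77.1 CPM in LP and 381, 210.4, 170.1 and 253 CPM in mature libraries, which overlapped widely (log2 fold change -0.45, SE 0.43, adjusted p = 0.480). Il10rb, the shared chain of the interferon lambda receptor, had 145, 107, 118 and 107 CPM in LP and 55.7, 58.8, 47.4 and 60.6 CPM in mature libraries (log2 fold change 1.10, SE 0.16, adjusted p = 0.00118), whereas Ifnlr1, the specific chain, had a log2 fold change of 0.16 (95% interval -0.63 to 0.96, adjusted p = 0.779).

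Of 15 sensors and adaptors that act before interferon is made, 13 were tested, with a median log2 fold change of 0.17. A call for LP was made in 4 (30.8%, against 10.9% of all tested genes). A call for mature cells was made in 0, against 13.8% of all tested genes. Dhx58, the RIG-I-like receptor LGP2, had 52.4, 34.6, 52.8 and 28.6 CPM in LP and 11.0, 3.94, 0.144 and 7.99 CPM in mature libraries (log2 fold change 2.85, SE 0.70, adjusted p = 0.0140), and Tlr3, the endosomal sensor of double-stranded RNA, had 77.5, 71.9, 53.3 and 52.9 CPM in LP and 17.2, 16.3, 36.2 and 36.0 CPM in mature libraries (log2 fold change 1.27, SE 0.30, adjusted p = 0.0121). Rigi (Ddx58), the sensor of RNA ends, differed less, with 139, 118, 121 and 130.1 CPM in LP and 76.8, 83.0, 103 and 79.6 CPM in mature libraries (log2 fold change 0.57, SE 0.15, adjusted p = 0.0181), and its call was lost without LP replicate 1 (adjusted p = 0.0574). The adaptor Myd88 was higher in LP (log2 fold change 1.24, SE 0.40, adjusted p = 0.0439) with 1 mature library among the LP values, a call lost without each LP library in turn or mature replicate 1, 2 or 3 (adjusted p up to 0.106). The adaptors of the RNA and DNA routes were level in their means. Mavs had 26.3, 34.1, 29.9 and 48.0 CPM in LP and 47.0, 27.1, 26.7 and 38.1 CPM in mature libraries (log2 fold change -0.01, 95% interval -0.59 to 0.58). Sting1 had 108, 129, 114 and 142 CPM in LP and 144, 48.6, 105 and 195 CPM in mature libraries (log2 fold change 0.00, 95% interval -0.73 to 0.74). Cgas, the DNA sensor that feeds STING, was below 10 CPM in every library and was not called (log2 fold change 1.75, SE 1.05, adjusted p = 0.252).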
